A study of Drosophila melanogaster with 3 samples.

Results

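Calls of eGFP-tagged CG10565 near the start of noncoding RNA genes were described in Drosophila melanogaster embryos. Of the 30000 calls in the list that the authors made from 3 pooled replicates, 635 (2.12%) had their summit within 500 bp of the transcription start site (TSS) of a gene of biotype ncRNA and no protein-coding TSS within 500 bp. Of these, 32 were also in the authors' list of 1143 calls that passed the irreproducible discovery rate (IDR), a measure of how alike calls rank across replicates. The authors labelled the list of 30000 as peaks and background, made as input for the IDR. A call in it therefore need not be a site that CG10565 binds. The calls in that list correspond closely to the 1143 pooled calls of highest signal. CG10565 encodes a J-domain protein, a class of proteins that partner Hsp70 chaperones, and its human relative DNAJC2 is a ribosome-associated chaperone that has also been studied on chromatin. Chromatin immunoprecipitation and sequencing (ChIP-seq) with an antibody against GFP was performed on whole embryos of mixed sex, aged 0 to 24 h, from a transgenic line that expresses CG10565 fused to GFP at its C terminus. The 3 biological replicates, numbered 1, 2 and 4 by the submitters, formed 1 group with no second condition, and every list was made with 1 control alignment that was not analysed here. The profile is an average over all cell types and stages of embryos from 1 line, and a GFP signal reports the fusion protein and not the untagged one. Sequencing depth is unknown because the lists carry no reads, and signal is the authors' value for a call, comparable only within its list.

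Long noncoding RNAs are transcripts that are not translated into a long protein. Many are transcribed by RNA polymerase II from promoters much like those of protein-coding genes, and most of the Drosophila ones carry only a catalogue symbol (CR and a number). A few are well studied: roX1 and roX2 take part in dosage compensation of the male X chromosome, Hsromega is induced by heat shock and its nuclear transcripts organise the omega speckles, and flam is a source of piRNAs that silence transposons in the ovary. The ncRNA biotype is broader than the long noncoding RNAs, with 3304 genes that also include antisense RNAs, miRNA hairpins, small RNA host genes and entries named after a transcript identifier. Among the 635 calls, the nearest ncRNA gene had an lncRNA symbol for 493 (77.6%), an antisense RNA symbol for 82, a miRNA hairpin for 29, a transcript identifier for 19 and another symbol for 12. The calls are therefore named ncRNA start-site calls below. Of the 485 entries named after a transcript, 243 start inside a protein-coding gene of the same strand.

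The bases within 75 bp of the summit are shown for the 6 IDR calls with the highest signal on 2L, 3L, 3R and X, since most of the values below turn on the strongest calls. The calls at the well-studied genes Hsromega and roX1, which were not in the IDR list, are shown beside them. Each line is the plus strand of the release 6 assembly (dm6), 5′ to 3′, and capitals mark matches to the 9 short motifs described further on, on either strand.
lncRNA:CR31840 (chr2L:14024018-14024168): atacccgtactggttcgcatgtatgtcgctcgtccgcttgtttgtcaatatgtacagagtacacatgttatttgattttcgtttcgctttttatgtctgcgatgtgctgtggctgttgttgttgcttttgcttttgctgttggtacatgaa
lncRNA:CR44619 (chrX:12751329-12751479): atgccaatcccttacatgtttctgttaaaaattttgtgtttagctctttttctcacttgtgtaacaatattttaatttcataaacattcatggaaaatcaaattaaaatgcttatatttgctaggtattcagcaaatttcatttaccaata
lncRNA:CR31044 (chr3R:29214359-29214509): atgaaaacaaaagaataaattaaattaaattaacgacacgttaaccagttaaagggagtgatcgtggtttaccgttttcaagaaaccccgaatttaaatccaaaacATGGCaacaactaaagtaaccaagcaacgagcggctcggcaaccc
lncRNA:CR45668 (chrX:5900149-5900299): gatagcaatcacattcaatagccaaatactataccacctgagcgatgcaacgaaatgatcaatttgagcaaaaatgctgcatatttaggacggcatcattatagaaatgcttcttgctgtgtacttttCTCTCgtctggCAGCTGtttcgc
lncRNA:CR42657 (chrX:9687650-9687800): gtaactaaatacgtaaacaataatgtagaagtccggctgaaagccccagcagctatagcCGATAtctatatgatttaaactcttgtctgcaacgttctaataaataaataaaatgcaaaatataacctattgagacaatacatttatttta
lncRNA:CR44676 (chr3L:19560722-19560872): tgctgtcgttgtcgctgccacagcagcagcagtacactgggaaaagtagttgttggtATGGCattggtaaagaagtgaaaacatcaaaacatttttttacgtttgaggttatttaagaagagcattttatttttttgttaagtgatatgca
lncRNA:Hsromega (chr3R:21296283-21296433): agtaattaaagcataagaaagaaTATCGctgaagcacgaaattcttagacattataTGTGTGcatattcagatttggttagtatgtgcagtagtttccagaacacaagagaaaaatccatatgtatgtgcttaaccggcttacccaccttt
lncRNA:roX1 (chrX:3862450-3862600): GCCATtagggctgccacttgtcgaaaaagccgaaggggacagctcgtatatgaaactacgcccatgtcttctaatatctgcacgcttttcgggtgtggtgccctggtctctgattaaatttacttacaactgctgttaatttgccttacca
The windows of CR31840 and CR44619, the 2 strongest ncRNA start-site calls, held no match to any of the 9 motifs within 75 bp of the summit. Those of CR31044, CR44676 and roX1 held the Pho core, that of CR45668 a GAGA element and an E-box, that of CR42657 the BEAF-32 core, and that of Hsromega the BEAF-32 core and a CA repeat. None of the 9 motifs was common to the 6 IDR windows. The motif shares further on use a wider window, of 100 bp to each side of the summit. In that window CR31840, CR44619, CR31044 and CR42657 also held a TATA box, and CR44619 the Pho core. No motif was common to the 6 IDR calls there either.

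The 3 strongest ncRNA start-site calls were among the 30 strongest calls of the genome and stood high in every replicate. The strongest, with a pooled signal of 567.8 and rank 12 of 30000, had its summit at 2L 14024093, 6 bp downstream of the TSS of lncRNA:CR31840 (FBgn0051840). It ranked 13 in replicate 1, 11 in replicate 2 and 64 in replicate 4. The nearest protein-coding TSS, that of hll, was 2908 bp away, and the summit was in no protein-coding gene. The call at lncRNA:CR44619 (FBgn0265830; X 12751404) had a signal of 492.7, and its ranks were 103, 19 and 4 in replicates 1, 2 and 4. Its summit was 463 bp upstream of the TSS and 5087 bp from the nearest protein-coding TSS. The call at lncRNA:CR31044 (FBgn0051044; 3R 29214434) had a signal of 446.3, and its ranks were 24, 35 and 44. It was 128 bp upstream of the TSS and 5738 bp from the TSS of eEF1gamma, which encodes a subunit of a translation elongation factor. The order of these 3 calls changed between replicates, but no replicate placed any of them below rank 103.

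**Figure D1:**
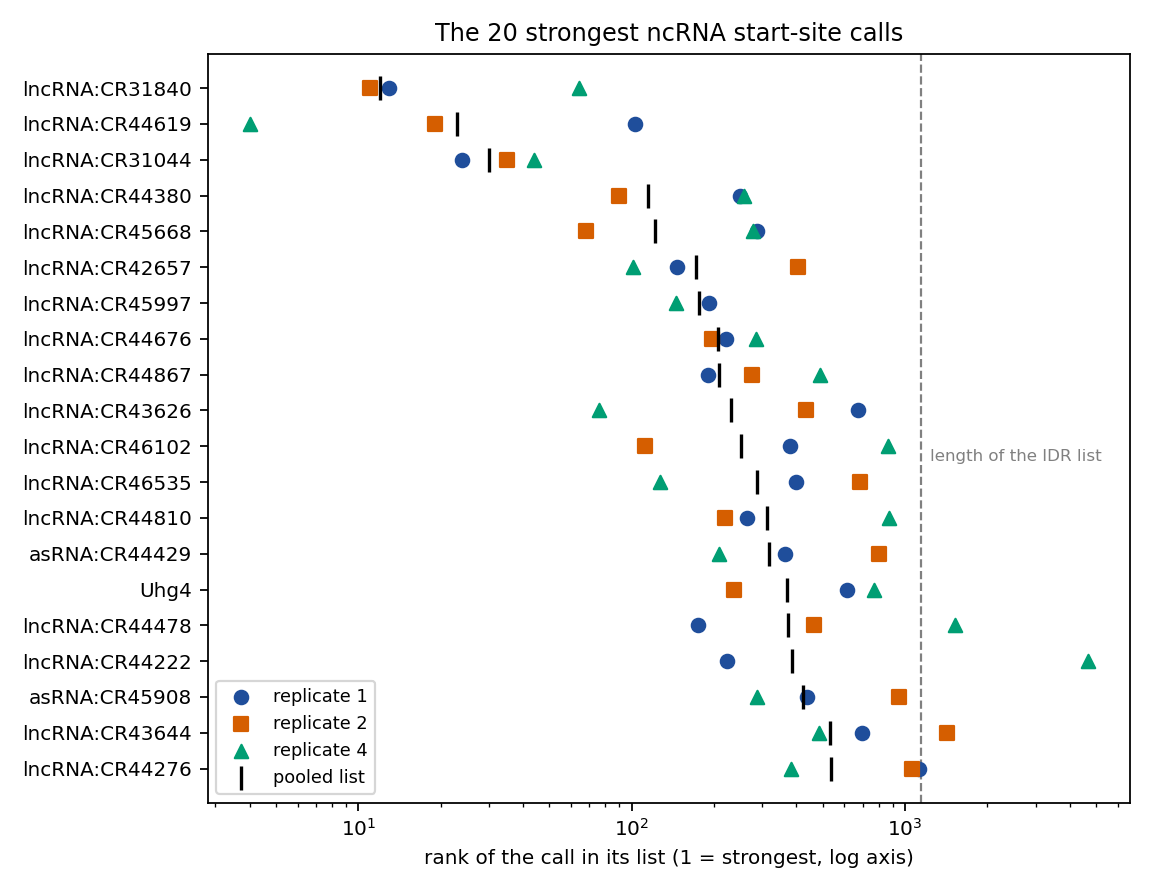
Rank of the 20 strongest ncRNA start-site calls in the pooled list (black bars) and at the same summit in the lists of replicates 1, 2 and 4 (coloured symbols), on a log axis where 1 is the strongest call. Most symbols lie left of the dashed line at 1143, the length of the IDR list; CR45997 and CR44222 have no symbol for replicate 2, where no call held the summit, and replicate 4 placed CR44222 at 4682.

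The next 3 calls were at lncRNA:CR44380, lncRNA:CR45668 and lncRNA:CR42657, with signals of 276.2, 269.5 and 236.7. The call at CR45668 was 235 bp upstream of its TSS and 637 bp from that of Act5C, a cytoplasmic actin gene; it ranked 288, 68 and 277. The call at CR42657 was 464 bp upstream and 659 bp from the TSS of nej, which encodes the acetyltransferase CBP; it ranked 146, 405 and 101. Both therefore lay close outside the limit that separates them from a protein-coding promoter. The call at CR44380 was 292 bp downstream of its TSS and 1386 bp from the nearest protein-coding TSS, and it ranked 249, 90 and 258. All 3 were among the strongest 1143 calls of each replicate.

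Of the 20 strongest calls, 7 lay inside a protein-coding gene. Calls at lncRNA:CR45997, lncRNA:CR46102, lncRNA:CR44478 and lncRNA:CR44222 lay within mbl (a splicing regulator), LpR2 (a lipophorin receptor), Socs36E (a suppressor of cytokine signalling) and kis (a chromatin remodeller), with signals of 234.9, 205.7, 176.8 and 173.4. The call at asRNA:CR44429, an antisense RNA of the juvenile hormone receptor gene gce, had a signal of 188.3 and was 556 bp from a gce TSS. Among these 7, the calls within mbl and kis were missing from replicate 2. The call at CR45997 ranked 192 in replicate 1 and 145 in replicate 4, and no call of replicate 2 held its summit. The call at CR44222 ranked 223 in replicate 1 and 4682 in replicate 4, and replicate 2 again had none. By contrast the call at lncRNA:CR44867, within beat-Ib, ranked 190, 276 and 490.

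The other calls of the first 20 lay outside protein-coding genes, except 1 within CG1943. The call at lncRNA:CR44810, which had a signal of 189.1, was 4537 bp from the TSS of slbo, a C/EBP transcription factor gene, and ranked 263, 220 and 871. The call at lncRNA:CR43644 (signal 151.1) was 519 bp from the TSS of E(spl)m3-HLH, a Notch target gene, and ranked 693, 1423 and 486. The call at lncRNA:CR44276 (signal 151.0) was 3725 bp from that of pnut, a septin gene, and ranked 1122, 1058 and 384. Those at lncRNA:CR44676, lncRNA:CR43626 and lncRNA:CR46535 had signals of 224.1, 214.5 and 194.6 and lay in no protein-coding gene. The call at asRNA:CR45908, within CG1943, had a signal of 168.4. CR44810 was also the gene with the most ncRNA start-site calls, 4, of which 1 was in the IDR list. No ncRNA gene had 2 separate IDR calls.

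The weaker calls of the IDR list, from rank 21 to 32 among the ncRNA start-site calls, varied in rank across replicates. Those at lncRNA:CR45325 (signal 148.9) and lncRNA:CR43650 (141.8) were among the strongest 1143 calls of every replicate, with ranks of 829, 508 and 841 and of 311, 842 and 905. The call at lncRNA:CR46036, within the gene of the chromatin remodelling subunit osa, had a signal of 138.6 and ranked 142 in replicate 1, 7035 in replicate 2 and 2618 in replicate 4. It was 13557 bp from the nearest protein-coding TSS. No call of replicate 2 held the summits at lncRNA:CR45595 (signal 143.1) and lncRNA:CR45251 (132.3), which ranked 366 and 559 in replicate 1 and 689 and 1736 in replicate 4. The calls at lncRNA:CR44363 (150.0) and asRNA:CR45999 (109.7) ranked 683, 2170 and 358 and 1748, 864 and 1206. The strongest ncRNA start-site call that was not in the IDR list, at lncRNA:CR45290, had a signal of 101.6 and ranked 5903 in replicate 1, with no call at its summit in the other replicates.

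Among ncRNA genes with a name beyond a catalogue number, 1 small RNA host gene was in the IDR list. The call at Uhg4 (FBgn0083124; 2R 9095189), a host of small nucleolar RNAs, had a signal of 177.1, was 84 bp upstream of the TSS and ranked 613, 237 and 771. It was 531 bp from the TSS of Boot and 183 bp from a TSS that is neither ncRNA nor protein-coding. Uhg7 had a weak call (signal 35.8, pooled rank 10083), Uhg3 had none within 500 bp, and Uhg1, Uhg2, Uhg5 and Uhg8 had only calls that also had a protein-coding TSS within 500 bp, the strongest at each gene at a rank between 2496 and 4597. The other 2 IDR calls of this kind were at mir-9378 (signal 122.0) and at an entry named FBtr0445485_df_nrg (signal 108.9). They lay within CG17124 and Tis11, each on the strand of the host gene and each near 3 ncRNA entries.

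None of the 37 lncRNA genes with a name had an ncRNA start-site call in the IDR list, although 13 had a weaker one. Over all lncRNA genes the count was 26 of 467 with a call (5.57%), so 0 of 13 does not set the named genes apart. The strongest was at Hsromega (3R 21296358; signal 97.5, pooled rank 1331), 231 bp downstream of the TSS. It ranked 1018 in replicate 1 and 2977 in replicate 2, and no call of replicate 4 held its summit. The first of 2 calls at flam had a signal of 75.2 and lay 249 bp upstream, with ranks of 2669, 1116 and 3984. Each of these calls was among the strongest 1143 of a single replicate. The calls at lncRNA:TS16, at yar, a gene between yellow and achaete linked to sleep, and at roX1 had signals of 63.0, 54.9 and 26.0. The roX1 summit was 100 bp upstream of a TSS, but the call ranked 25817 in replicate 1 and 18526 in replicate 2, and replicate 4 had none. No pooled call was within 500 bp of a TSS of roX2, bxd, iab4, cherub, acal or let7C. The only named lncRNA gene near an IDR call was enrr, and that call (signal 194.3) was also 222 bp from the TSS of elav, a neuronal RNA-binding protein gene, so it is no ncRNA start-site call.

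Of the remaining calls named by the same rule, those at FBtr0304469_df_nrg and mir-2491 had signals of 89.2 and 85.9. Those at asRNA:ASTR, FBtr0472814_df_nrg, mir-2b-1 and mir-4974 had signals between 53.1 and 58.2. The rule named these 6 calls as ones outside the IDR list, and membership in that list follows signal. That their signal is below the 108.9 of the weakest ncRNA call in the list is therefore no separate result. The one at FBtr0472814_df_nrg lay within E2f1, a cell cycle regulator, and the one at mir-2b-1 within Btk, a tyrosine kinase gene.

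As a group, the ncRNA start-site calls had a share in the IDR list between those of calls at protein-coding TSSs and of calls away from any TSS. The IDR list held 32 of 635 of them (5.04%, 95% Wilson interval 3.59 to 7.03), beside 3.81% of all pooled calls. It held 573 of 6166 calls at protein-coding TSSs with no ncRNA TSS (9.29%) and 515 of 22813 calls with no TSS of any gene within 500 bp (2.26%, 2.07 to 2.46). Where an ncRNA and a protein-coding TSS were both within 500 bp, the share was 23 of 222 (10.4%, 7.00 to 15.1). Where the only TSSs within 500 bp were of other kinds, it was 0 of 164 (0.00 to 2.29%). The ncRNA share stood 1.23 percentage points above that of all calls, and its interval includes the share of all calls. These intervals measure counting error alone, as if regions were independent of each other. The IDR list corresponds closely to the strongest 1143 pooled calls. Pooled ranks 1 to 250 and 251 to 1143 held 10 and 22 ncRNA start-site calls, which make up the 32. For protein-coding ones, 146 and 427 give the same total as the 573. Membership among these calls thus follows pooled signal, and does not show that a call ranked alike in each replicate.

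The same order was seen in each replicate's own list, where ncRNA start-site calls numbered 654, 602 and 627 in replicates 1, 2 and 4. The median percentile of their signal within the list was 55.4, 52.6 and 50.3, where 100 is the strongest. For protein-coding start-site calls it was 66.3, 63.9 and 66.1, and for calls away from TSSs 44.3, 47.9 and 46.1. The ncRNA calls were lower than the protein-coding ones on average (difference -12.7 ± 2.72 percentile points, SD, n = 3 replicates; lower in 3 of 3) and higher than the calls away from TSSs by 6.64 ± 3.85 (higher in 3 of 3). A two-sided exact permutation test that flips the sign of each replicate's difference gave p = 0.25 for both, the smallest p that 3 replicates allow, so no such difference can be significant here. Among the ncRNA calls, 6.12%, 4.82% and 5.10% were in the strongest 1143 of their replicate's list, beside 7.65%, 12.6% and 9.25% of the protein-coding ones and 2.31%, 2.23% and 2.26% of those away. The difference in this share from protein-coding start sites was -4.49 ± 3.13 percentage points (SD, n = 3; lower in 3 of 3), again with p = 0.25 in the exact test. It was narrowest in replicate 1, a difference of -1.54 percentage points, where the 95% intervals overlapped (4.52 to 8.22 and 7.08 to 8.27).

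Support by all 3 replicates, counted as a pooled summit inside one of the strongest 1143 calls of each, was found for 19 ncRNA start-site calls (2.99%, 1.92 to 4.63), beside 1.48% of all pooled calls. It was found for 3.94% of protein-coding start-site calls and 0.776% of calls away from TSSs. No replicate gave such support to 580 of the 635 (91.3%), beside 92.9% of all pooled calls. The supported ncRNA call outside the IDR list, at lncRNA:CR43626 (signal 48.1), overlapped the IDR call of that gene. Both had the same ranks in replicates 1 and 2. With calls that overlap a stronger call left out, the count was 18 of 603 (2.99%). With an overlap of 1 bp in place of a summit inside the call, it was 19 of 635. A wider call holds a summit more readily, and the most frequent width was 370, 350 and 600 bp in replicates 1, 2 and 4. Of the 32 IDR calls, 18 had the support of 3 replicates, 7 of 2, 6 of 1 and 1 of none. The call with none was at lncRNA:CR45541, 1748 bp from the TSS of the hexokinase gene Hex-A. It ranked 1353, 1950 and 1337, outside the strongest 1143 of each replicate. Of all 30000 pooled calls, 445 had the support of 3 replicates. The same counts over all IDR calls are not given here, so these counts do not set the 32 apart. Replicate 2 held the fewest of the 32, with any call at the summit of 27, where replicates 1 and 4 had a call at all 32. Of the other 1111 IDR calls, replicates 1, 2 and 4 had a call at 1104, 1009 and 1087, so replicate 2 was lowest there too. The median rank of the 32 was 372.5 in replicate 1, 466 over the 27 in replicate 2 and 589.5 in replicate 4, and that of the other IDR calls was 610.5, 549 and 646. The replicates are part of the pool in which these calls were ranked, so these ranks are a description.

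The ncRNA share of calls was highest in the strongest range of signal and differed little over the other ranges. It was 4.00% (10 of 250, 2.19 to 7.21) for the strongest 250 pooled calls, 2.46% for ranks 251 to 1143, and between 1.97% and 2.51% for all weaker ranges. The windows that the rule admits cover 1.67% of the length of the major chromosome arms. The share of calls at protein-coding TSSs fell from 58.4% of the strongest 250 to 13.1% of the weakest 10000, and their windows cover 11.1% of the same length. Among the weakest 10000 calls, 2.02% (1.76 to 2.31) were at ncRNA start sites, and the intervals of the strongest and the weakest range overlap. The strongest range rests on 10 calls, too few to settle whether the share rises there. The stronger 571 calls of the IDR list held 22 of the 635 (3.46%), beside 1.90% of all pooled calls.

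**Figure D2:**
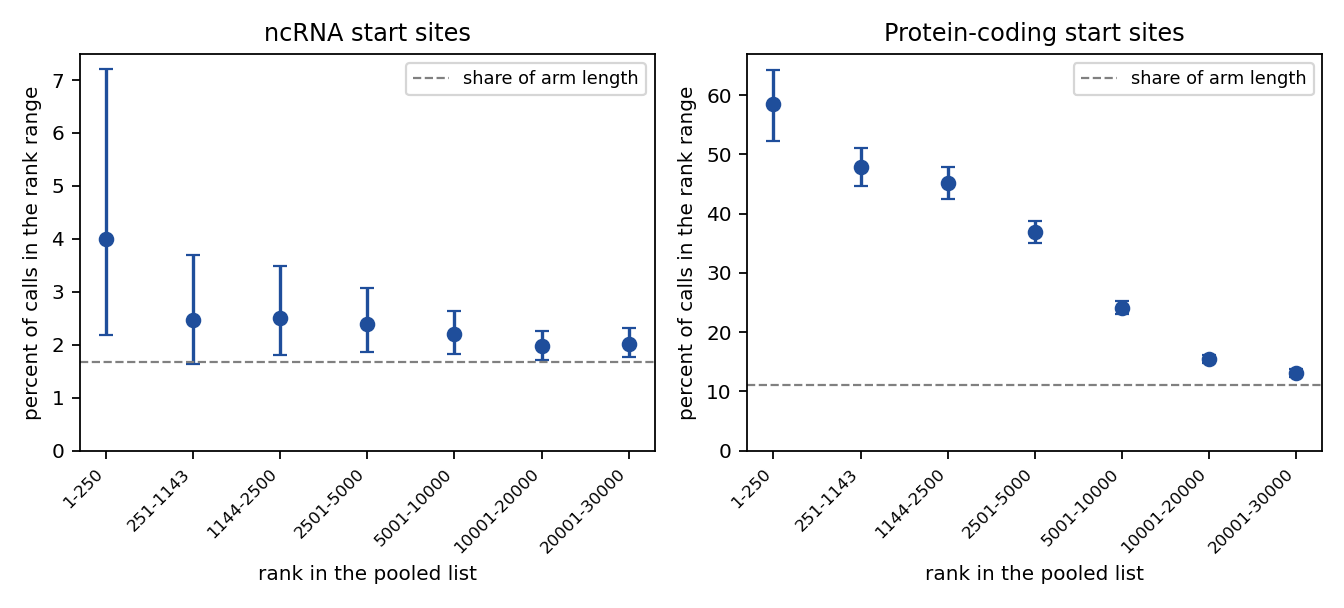
Percent of pooled calls in each range of rank (1 is the strongest call) with the summit at an ncRNA start site (left) or a protein-coding start site (right), with 95% Wilson intervals; the dashed lines are the share of arm length covered by the windows, and the vertical scales differ. The ncRNA share lies between 1.97% and 4.00%, while the protein-coding share falls from 58.4% to 13.1%.

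By class of gene, the IDR list held 26 of the 493 calls at lncRNA symbols (5.27%, 3.62 to 7.62), 3 of 82 at antisense RNAs (3.66%), 1 of 29 at miRNA hairpins (3.45%), 1 of 19 at transcript entries and 1 of 12 at the rest. The intervals of all classes overlap, and classes other than lncRNA have too few calls to tell their shares apart. Counted by gene, 720 of the 3304 ncRNA genes had an ncRNA start-site call and 36 of these (95% interval of the share 3.63% to 6.84%) had one in the IDR list. Over genes of any kind with a pooled call within 500 bp of a TSS the share was 12.0%, and over protein-coding genes it was 13.2% (828 of 6280). Allowing a protein-coding TSS nearby raised the count to 59 of 940 ncRNA genes (6.28%, 4.90 to 8.01), still under 12.0%. For the protein-coding genes a nearby ncRNA TSS was allowed. A gene with more TSSs has more places for an IDR call, and the 3304 ncRNA genes had 3431 TSSs. The number of TSSs per gene was not taken into account. A single call was within 500 bp of several ncRNA genes in 71 cases, 2 of them in the IDR list, so genes are not independent of each other.

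Summits at ncRNA genes were spread over the whole window, whereas those at protein-coding genes gathered just upstream of the TSS. The median position of the 635 summits was 31.0 bp upstream of the nearest ncRNA TSS (position -31.0 bp, quartiles -250 and 280.5), with medians of -62.0, 26.5 and -21.0 bp in the lists of replicates 1, 2 and 4 (SD 44.3 bp). The sign of this median is not stable, since it also changed to 8 bp downstream with a window of 1000 bp. Within 100 bp of the TSS lay 118 (18.6%, 15.7 to 21.8), and an even spread over the window would place 20.1% there. Of the 32 IDR calls, 19 were upstream (59.4%) and 5 within 100 bp (15.6%, 6.86 to 31.8). Of the 573 protein-coding IDR calls, 511 (89.2%) were upstream, at a median position of -143 bp (quartiles -232 and -77.0), and 27.1% were within 100 bp. The strongest 1143 calls of each replicate gave the same contrast: 24 of 40, 20 of 29 and 16 of 32 ncRNA calls were upstream, against 87.2%, 85.1% and 88.5% of the protein-coding ones. The difference was -27.3 ± 11.2 percentage points (SD, n = 3; lower in 3 of 3), and the two-sided exact permutation test gave 0.25, the smallest p possible. Within 100 bp lay 4 of 40, 5 of 29 and 2 of 32 of these ncRNA calls, against 29.7%, 34.4% and 25.0% of the protein-coding ones. This share differed by -18.5 ± 1.29 percentage points (SD, n = 3), with the same p in the same exact test. It rests on few ncRNA calls, and in the IDR list the intervals of the 2 shares overlapped (6.86 to 31.8 and 23.6 to 30.8). These replicate comparisons of position were chosen after the pooled positions had been seen. How precisely the annotated ncRNA TSSs mark the starts used in embryos was not tested.

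**Figure D3:**
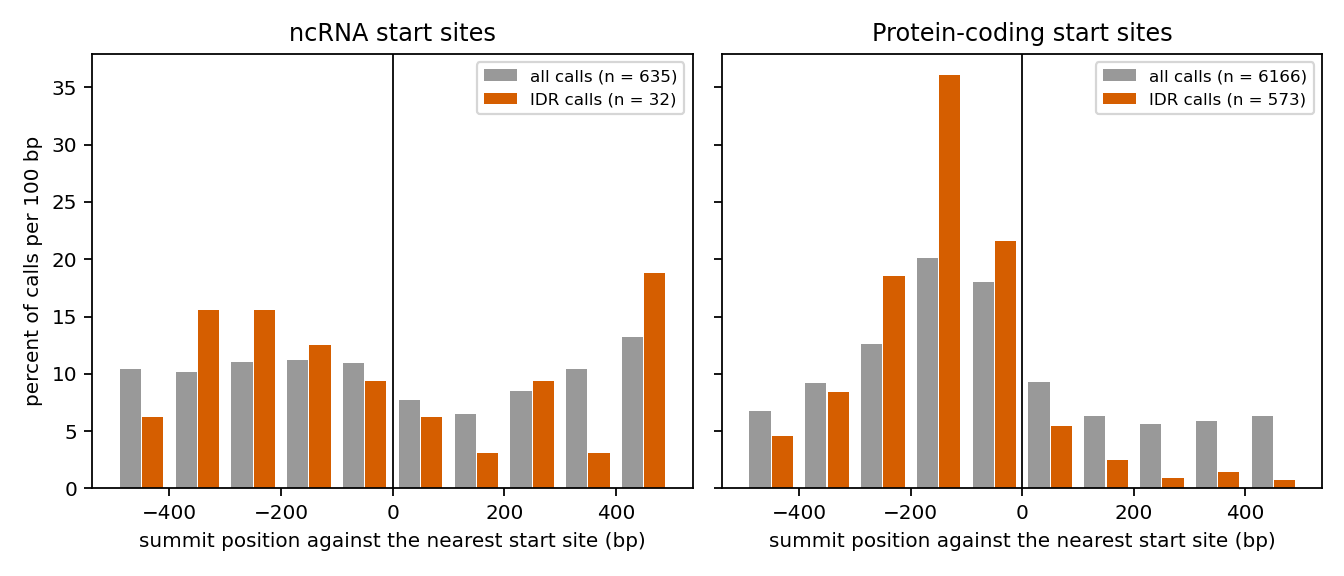
Summit position against the nearest TSS of the class in 100 bp steps (negative is upstream on the strand of the gene), as percent of calls, for all pooled calls (grey) and IDR calls (orange). At protein-coding start sites 36.1% of IDR calls fall between 200 and 100 bp upstream, whereas no step holds more than 18.8% of the IDR calls at ncRNA start sites.

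Calls close to the ncRNA TSS were few but varied in strength. Besides CR31840 at 6 bp, the IDR calls within 100 bp were at CR44222 (32 bp downstream), CR45588 (41 bp upstream), Uhg4 (84 bp upstream) and CR43650 (100 bp upstream). The call at CR45588 was 32933 bp from the nearest protein-coding TSS, that of corto, and ranked 568, 1215 and 4315. That at CR43650 was 3717 bp from one and ranked 311, 842 and 905. Of these 5, the calls at CR31840, Uhg4 and CR43650 were in the strongest 1143 of all 3 replicates.

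Fewer ncRNA start-site calls lay inside a protein-coding gene than other calls did. The count was 239 of 635 (37.6%, 34.0 to 41.5), beside 67.9% of all pooled calls, 57.2% of those at protein-coding TSSs and 72.0% of those away from TSSs. The classes differed widely: 26.6% of calls at lncRNA symbols were inside a protein-coding gene, beside 81.7% at antisense RNAs. Of the 239, 155 lay in a gene on the strand opposite to the ncRNA, 81 in one on the same strand and 3 in both. Of the IDR calls, 11 lay inside a protein-coding gene (8 on the opposite and 3 on the same strand) and 21 outside. The position of annotated genes sets these shares in part, since an antisense RNA overlaps its partner by definition.

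Nearness to a protein-coding TSS showed no steady order with the IDR share of ncRNA start-site calls. Their median distance to the nearest protein-coding TSS was 3080 bp, and 3312 bp for those in the IDR list. Of calls up to 1000 bp away 7 of 108 were in the IDR list (6.48%, 3.17 to 12.8), and of calls over 5000 bp away 12 of 219 (5.48%, 3.16 to 9.33). Calls away from any TSS had lower shares, of 3.36% (2.78 to 4.05) up to 1000 bp and 1.82% (1.57 to 2.11) over 5000 bp. In the farthest range the 2 intervals did not overlap, and in the nearer 3 ranges they did. Farthest from any protein-coding TSS among the IDR calls were those at CR45588 and at lncRNA:CR44917, the latter at 30790 bp with ranks of 1070, 313 and 2709.

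**Figure D4:**
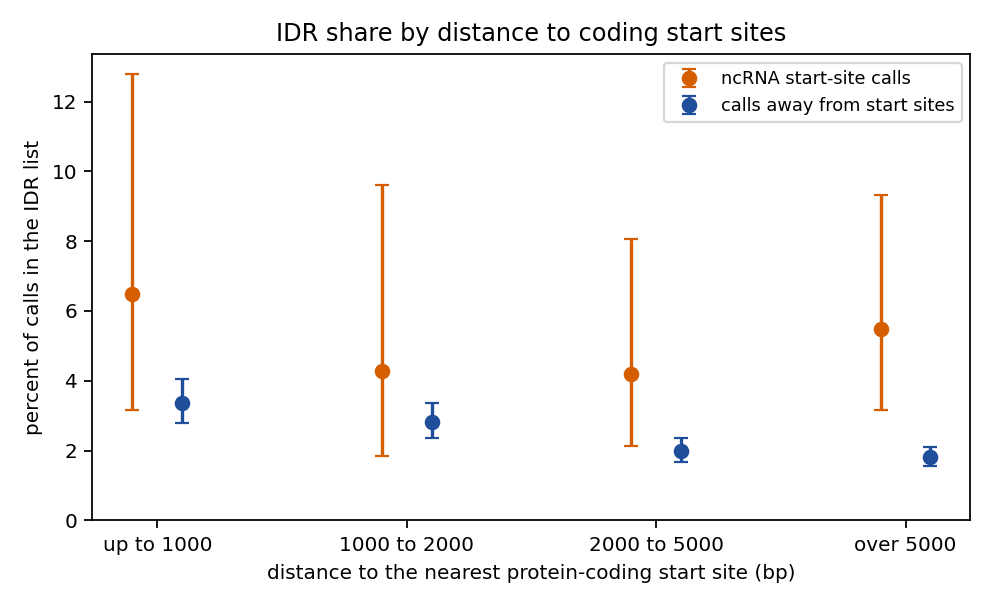
Percent of calls in the IDR list by distance from the summit to the nearest protein-coding TSS, for ncRNA start-site calls (orange) and calls with no TSS within 500 bp (blue), with 95% Wilson intervals. The ncRNA shares lie between 4.19% and 6.48% and the others between 1.82% and 3.36%.

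Motif matches near the summit of ncRNA start-site calls were close to those of all pooled calls. Exact matches on both strands were counted within 100 bp of the summit. The Pho core GCCAT was in 31.7% of the 635 (all pooled calls 33.0%), the TATA box TATAAA in 30.1% (31.1%), the GAGA element GAGAG in 21.6% (19.7%) and the BEAF-32 core CGATA in 20.3% (22.8%). The CA repeat CACACA was in 14.0% (15.9%), the A tract AAAAAAAA in 12.0% (12.1%), the E-box CAGCTG in 7.24% (8.18%) and the Zelda site CAGGTAG in 1.26% (0.933%). The promoter element DRE, TATCGATA, which contains the BEAF-32 core, was in 0.472% of ncRNA start-site calls, 1.37% of all calls and 4.28% of protein-coding start-site calls. Among the 32 IDR calls, 15 held TATAAA (46.9%, 30.9 to 63.6), beside 36.6% of all IDR calls, and 2 held CGATA (6.25%, 1.73 to 20.1), beside 25.8% of all IDR calls and 30.5% of the protein-coding ones. The median GC content within 100 bp of the summit was 34.3% for these 32 and for all IDR calls, and 38.3% for the 635. A match is a description of the letters near the summit, and whether any factor binds there was not tested.

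The calls at the limits of the rule had signals between 25.3 and 63.6, beside a median of 32.2 over the 635. The pair just inside the ncRNA limit, both at 499 bp, were at lncRNA:CR43963 and lncRNA:CR45225 with signals of 32.6 and 25.3, and the pair just outside, both at 502 bp, were at lncRNA:CR44524 and mir-4971 with 30.3 and 27.5. The pair just far enough from a protein-coding TSS were at asRNA:CR43243 (501 bp, signal 55.7) and lncRNA:CR45233 (503 bp, signal 63.6). The pair just too close were at lncRNA:CR44977 (498 bp, signal 30.1) and Uhg1 (500 bp, signal 49.0). None of these 8 was in the IDR list. By chromosome arm, the ncRNA start-site calls were 164 of 5887 pooled calls on 2L (2.79%), 148 of 6598 on 3L (2.24%), 152 of 7340 on 3R (2.07%), 98 of 5370 on 2R (1.82%), 9 of 562 on 4 (1.60%) and 64 of 4242 on X (1.51%). In the IDR list they were 7 of 226 calls on 2L, 4 of 251 on 3L, 8 of 257 on 3R, 7 of 198 on 2R, 0 of 6 on 4 and 6 of 205 on X. The number of ncRNA start sites on each arm was not taken into account. Of the 635, 603 overlapped no stronger pooled call, and all 32 IDR calls were among these.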

How the data were processed

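Lists were made by the authors for each replicate's dm6 alignment and for the pool of 3, each with a control, and the IDR list came from these, per the text deposited with them. Which aligner, caller and IDR threshold the authors used was not given in the sources used here. The deposited values used were the signal of a call, a unit of the authors' caller that served only to rank calls within a list, and the distance from its start to its summit. All 1143 IDR calls have the coordinates of a pooled call. The dm3 lists were not used.

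Summits were annotated with TSSs of all transcripts in Ensembl release 115 (18358 genes, transposable elements left out), whose coordinates are those of dm6. Chromosome lengths and bases came from the RefSeq release 6 assembly. Calculations used Python 3.11.15, numpy 2.4.6, pandas 2.3.3 and scipy 1.17.1, and were tested on simulated calls. Regions were compared by counts with 95% Wilson intervals, and replicates by an exact sign-flip permutation test. The named calls were the 20 with the highest signal, every named ncRNA gene in the IDR list, the strongest call of up to 10 other named ncRNA genes, and the calls at the limits. Other named lncRNA genes, and IDR calls described for their position, distance or support, were added after their values were seen. The genes, motifs and tests were chosen with earlier results of these data known. The alternatives were other windows, gene sets, overlap rules and list lengths, and each replicate left out.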

Additional observations from a re-analysis of the deposited data

How the results depend on the processing

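Of 55 recalculations over 7 results, 52 stayed within the spread of the result. The median summit position changed sign, from -31.0 bp to 8 bp with a window of 1000 bp, a move smaller than its SD of 44.3 bp over replicates; no other result changed direction. Counting genes with an lncRNA symbol alone put 26.7% of the calls inside a protein-coding gene, against 37.6% with all classes. Taking only the stronger 571 IDR calls left 3.46% of the calls and 3.06% of the ncRNA genes, against 5.04% of the calls and 36 of 720 genes; fewer IDR calls are counted there by construction. All pooled calls then had a share of 1.90%, against 3.81%, so the ratio of the ncRNA share to that of all calls depends on this length. Leaving out each replicate in turn gave between 2.99% and 3.94% of calls with the support of all remaining replicates, a rank difference to protein-coding start sites between -13.6 and -11.1 percentile points, and one to calls away from TSSs between 4.42 and 7.88. Without replicate 1 the last was 4.42, against 6.64 with all 3.

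With 3 replicates the exact test over them cannot go under p = 0.25, and with 32 IDR calls a share has a wide interval. The lists give no read counts, so it is unknown how far depth limits the weaker calls, such as those at roX1 and Hsromega. TSSs are as annotated, over all tissues and stages.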

Other observations

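Calls near both an ncRNA TSS and a protein-coding TSS cannot be given to either gene. The strongest of the 23 in the IDR list were at lncRNA:CR44463 and mRpL41 (signal 547.0, 138 bp from the mRpL41 TSS), at lncRNA:CR44120 and SLC5A11 (318.5), and at lncRNA:CR44149 and brwl (308.9). The next were at sisRNA:CR46364 and RpS27, a ribosomal protein gene (283.1), and at asRNA:CR45928 and eIF6 (256.4). The summit was 22 bp from the TSS of RpS27 and 121 bp from that of eIF6. These are the 5 with the highest signal, a choice made after their values were seen.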
